A study of Mus musculus with 4 samples.

Results

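The endoplasmic reticulum (ER) folds and exports the proteins that a cell secretes or places on its surface, and the 34 genes described here encode its folding machinery and the responses that adjust it. They are the symbols of a fixed list that were present among the 12020 genes of the count table, so their presence is no result. They comprise 18 ER chaperones and folding enzymes, 4 genes of the sensing step (Ern1, Atf6, Eif2ak3 and Xbp1), 6 genes of ER-associated degradation and 6 genes of the branch that runs through ATF4 and CHOP. The samples were natural killer T (NKT) cells, T lymphocytes that recognise lipids bound to CD1d, sorted as GFPhi cells from Va14 Tg.cxcr6gfp/+ mice on the C57BL/6 strain, aged 10 to 12 weeks. Both groups therefore carried the Va14 receptor transgene and the GFP allele of Cxcr6, and as labelled they differ in that 2 libraries came from cells kept resting and 2 from cells stimulated on plates coated with mCD1d-PBS57 tetramers. Liver is the labelled tissue, although the sorting text also names spleens and the RNA text islets. Neither the time in culture nor any pooling of mice is given in the sources used here.

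As background, unfolded proteins in the ER draw the chaperone BiP away from 3 sensors in its membrane. IRE1 (gene Ern1) splices the mRNA of Xbp1, ATF6 is cut to release a transcription factor, and PERK (gene Eif2ak3) slows translation and favours synthesis of ATF4. Spliced XBP1 and cut ATF6 raise chaperones and degradation factors, while ATF4 raises amino acid genes and, under lasting stress, CHOP (gene Ddit3) and Trib3. ATF4 also rises without ER stress, when amino acids are short or mTORC1 is active, and lymphocytes that begin to secrete are known to enlarge their ER.

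Libraries held between 4168438 and 5495521 counts. Of the 12 NKT and T cell markers all were present, and their summed level was 4010 to 4170 CPM (counts scaled to a common library size of 1000000) in the resting and 3580 to 4360 CPM in the tetramer libraries. Within this list 0 rose and 2 fell: Klrb1c, which encodes NK1.1, from 144 ± 42.1 to 8.21 ± 7.56 CPM (SD, n = 2 each, edgeR adjusted p = 2.91e-06), and the chemokine receptor Cxcr6 from 1360 ± 364 to 566 ± 215 CPM (adjusted p = 0.0190). Markers of B and plasma cells, which have a large ER, summed to 24.2 to 33.1 CPM at rest and 24.3 to 25.3 CPM after stimulation over 6 of 11 listed genes. Hepatocyte markers summed to 38.5 to 59.0 CPM at rest and 13.7 to 18.2 CPM after stimulation over 3 of 10 listed genes, the single endothelial or stellate cell marker analysed to 28.8 to 75.0 and 10.2 to 15.8 CPM, and 5 of 12 macrophage and dendritic cell markers to 22.0 to 26.9 and 13.3 to 15.0 CPM. In the macrophage and dendritic cell list Csf1r was called lower (mean 16.0 to 4.16 CPM) and Itgax higher (0.418 to 3.97 CPM). Within the B and plasma cell list 2 genes rose and 1 fell, and within the hepatocyte list 0 rose and 2 fell. The part of these marker levels in the results below was not tested. Fewer cells of a type and less RNA per cell cannot be told apart in bulk samples.

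Stimulated NKT cells held more mRNA for BiP, calreticulin and 8 other ER chaperones and folding enzymes. Among the 32 members that passed the filter on low counts, 11 rose and 2 fell in edgeR's quasi-likelihood fit across all genes, where a call means an adjusted p below 0.05. Over all genes tested the percentages were 14.3% higher and 12.1% lower. By role, 10 of 18 chaperones and folding enzymes rose and 0 fell, and 0 of 6 degradation genes rose and 1 fell. For the degradation genes that is 0% higher and 16.7% lower, and 6 genes are too few to tell these shares from those of all genes. In the ATF4 and CHOP branch 1 of 6 rose and 1 fell, and neither of the 2 tested sensor genes was called. Both tetramer libraries lay above both resting libraries for 16 of the 32 tested members and below them for 9 of 32. Of all 11312 genes tested, 3570 (31.6%) lay above and 3807 (33.7%) below. The share of members below was thus no larger than that of all genes. The median log2 fold change, tetramer over resting, was 1.15 for chaperones, -0.20 for degradation genes and -0.59 for the ATF4 and CHOP branch, against -0.06 for all genes tested. No test of the difference between roles was made. Scaled by library totals alone, the median of all genes moved to -0.35, and 5 members rose and 3 fell in place of 11 and 2 (over all genes, 1193 higher and 2250 lower in place of 1620 and 1366). Directions are therefore relative to the scaling between libraries. Without resting library 4, tetramer library 4 or tetramer library 5 fewer members were called higher, and so were fewer of all genes. The median log2 fold change of the members was then 0.68, 0.44 and 0.69, against 0.01, -0.09 and -0.12 for all genes tested.

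**Figure D1:**
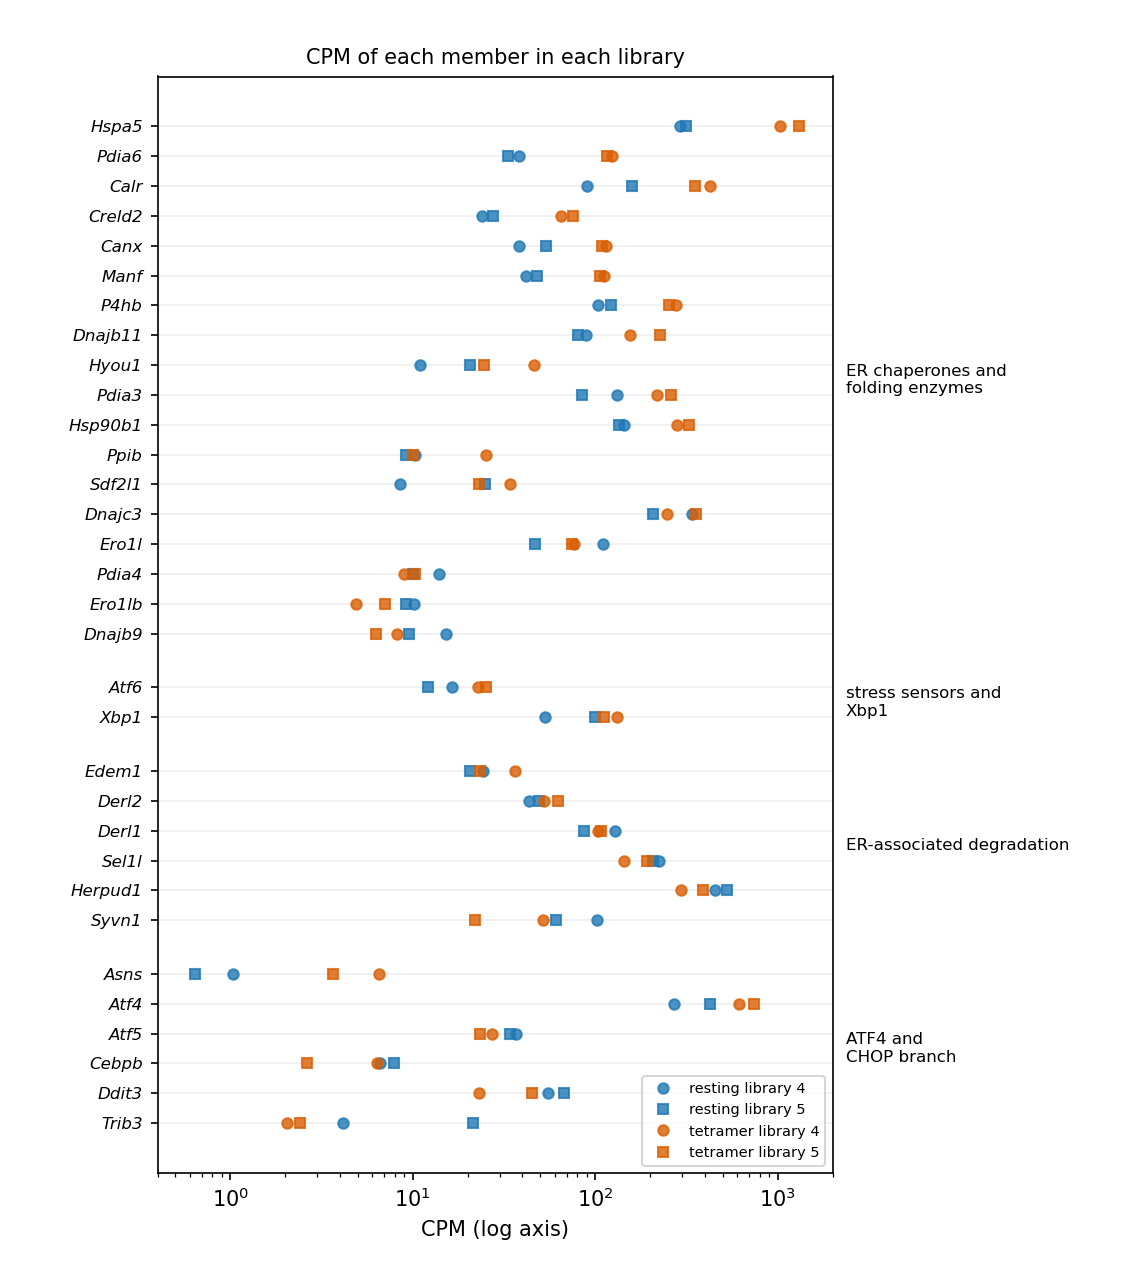
CPM of the 32 tested members (log axis) in resting libraries (blue) and tetramer libraries (orange), with circles for library 4 and squares for library 5, grouped by role. For Hspa5 the resting libraries lie at 292 and 316 CPM and the tetramer libraries at 1037 and 1302 CPM, while for Derl1 the tetramer libraries lie between the resting ones.

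Hspa5 encodes BiP, the HSP70 chaperone that binds nascent chains in the ER and holds the sensors inactive. Its level was 292 and 316 CPM in resting libraries 4 and 5 and 1037 and 1302 CPM in tetramer libraries 4 and 5. Both tetramer libraries were far above both resting libraries, a 3.85-fold rise (log2 fold change 1.94 ± 0.38 SE, adjusted p = 0.000504). Among its partners, Dnajb11, a J-domain co-chaperone that delivers clients to BiP, stood at 89.3 and 81.0 CPM at rest and at 156 and 228 CPM after stimulation. It rose 2.25-fold (adjusted p = 0.0204), with the tetramer libraries differing more between themselves than the resting ones. Manf, which stabilises BiP bound to its clients, went from 42.1 and 48.3 to 111 and 107 CPM (2.42-fold, adjusted p = 0.0142). Creld2, a disulfide isomerase-like protein induced with BiP, went from 24.0 and 27.6 to 64.7 and 76.1 CPM (2.73-fold, adjusted p = 0.0105). For both genes the gap between groups exceeded the spread within them. Without resting library 4, tetramer library 4 or tetramer library 5 Manf was not called (adjusted p of 0.0604, 0.127 and 0.0676), nor was Dnajb11 without resting library 5 or tetramer library 5 (0.0700 and 0.229). Creld2 was no longer called when tetramer library 4 was left out (adjusted p = 0.0559) or when tetramer library 5 was (adjusted p = 0.0924).

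Hsp90b1 encodes GRP94, the HSP90 chaperone of the ER, which folds integrins and Toll-like receptors. It measured 144 and 136 CPM at rest and 282 and 326 CPM after stimulation. The libraries of each group were close together, and the rise was 2.17-fold (log2 fold change 1.12 ± 0.36 SE, adjusted p = 0.0236). Its call was lost without any 1 of the 4 libraries, with adjusted p between 0.0614 and 0.145. Hyou1, the GRP170 chaperone and nucleotide exchange factor of BiP, had 11.0 and 20.7 CPM at rest and 46.4 and 24.7 CPM after stimulation. Its groups did not overlap, but tetramer library 5 lay close to resting library 5 and the difference was not called (log2 fold change 1.16 ± 0.49 SE, adjusted p = 0.0761). Sdf2l1, a small partner of BiP, was at 8.49 and 25.0 CPM at rest and 34.2 and 23.1 CPM after stimulation, so its groups overlapped (adjusted p = 0.268). Both were called without resting library 5, with adjusted p = 0.0164 for Hyou1 and 0.0186 for Sdf2l1.

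The lectin chaperones, which hold glycoproteins while they fold, also rose. Calr, the soluble lectin calreticulin, measured 90.5 and 159 CPM at rest and 426 and 351 CPM after stimulation (3.12-fold, adjusted p = 0.00265). Canx, its membrane-bound relative calnexin, measured 38.1 and 54.1 CPM at rest and 115 and 109 CPM after stimulation (2.43-fold, adjusted p = 0.0145). In both genes resting library 4 was the lowest. The tetramer libraries of Canx were near each other, while those of Calr differed by about as many CPM as its resting libraries did. Pdia3, the disulfide isomerase that works with these lectins and in peptide loading of MHC class I, went from 132 and 85.3 to 218 and 260 CPM (2.20-fold, adjusted p = 0.0248). Its resting libraries differed by more than its tetramer libraries did, and leaving out resting library 5, tetramer library 4 or tetramer library 5 ended its call, with adjusted p of 0.166, 0.0895 and 0.150. Leaving out resting library 4, tetramer library 4 or tetramer library 5 ended the call of Canx, with adjusted p of 0.0929, 0.126 and 0.0619, whereas Calr was called without any single library.

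The disulfide isomerases did not move alike. Pdia6, an isomerase that also binds the sensors, went from 38.1 and 33.1 to 123 and 116 CPM (3.35-fold, log2 fold change 1.75 ± 0.38 SE, adjusted p = 0.00150). P4hb, the classical protein disulfide isomerase, went from 104 and 122 to 277 and 253 CPM (2.35-fold, adjusted p = 0.0137). In both genes the libraries of a group were near each other and the groups far apart, although P4hb was not called without resting library 4 or tetramer library 4 (adjusted p of 0.0708 and 0.126). Pdia4, which encodes the related isomerase ERp72, measured 13.9 and 10.0 CPM at rest and 9.0 and 10.3 CPM after stimulation. Its groups overlapped and its log2 fold change was -0.31 ± 0.55 SE (adjusted p = 0.713). Ero1l and Ero1lb, the oxidases that recharge these isomerases, were not called either. Ero1l was at 111 and 47.0 CPM at rest and 76.7 and 74.4 CPM after stimulation, with the tetramer pair inside the range of the resting pair (adjusted p = 0.926). Ero1lb was at 10.2 and 9.19 CPM at rest and 4.91 and 7.08 CPM after stimulation, both lower (adjusted p = 0.412).

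Among the remaining co-chaperones and folding genes none was called. Dnajc3, the p58IPK co-chaperone that also restrains PERK, had overlapping groups, at 341 and 207 CPM at rest and 248 and 359 CPM after stimulation (log2 fold change 0.15 ± 0.38 SE). Dnajb9, a co-chaperone tied to degradation and to the control of IRE1, measured 15.3 and 9.62 CPM at rest and 8.18 and 6.27 CPM after stimulation. Both of its tetramer libraries were lower, with a log2 fold change of -0.79 ± 0.57 SE (adjusted p = 0.319). Ppib, cyclophilin B, a proline isomerase, was at 10.4 and 9.19 CPM at rest and at 25.4 and 10.1 CPM after stimulation, so that tetramer library 4 alone stood high (adjusted p = 0.250). The 10 chaperone genes that rose did so by 2.17-fold to 3.85-fold. Of the 12 alternative settings Hspa5, Calr and Pdia6 were called in all, and Hsp90b1 in 6. With library totals, or against a fold of 1.5, the 4 chaperones called were Hspa5, Calr, Pdia6 and Creld2.

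Promoter windows of the members were compared for shared elements. The ER stress response element (ERSE), to which cut ATF6 binds together with the factor NF-Y, was searched on both strands as the half-site CCAAT, then 9 bases of any letter, then the half-site CCACG, in RefSeq promoter windows of build GRCm38.p6, from 250 bases before to 50 bases after the annotated start. This build differs from the mm9 of the count table, so genes were joined by symbol only, and 30 of 34 members matched, Ero1l and Ero1lb through their newer names. Manf, Hyou1, Atf6 and Derl1 had no entry. The element stood in 39 of 32851 windows, or 0.119%. Counted by gene, it was in 14 of the 9043 tested genes with a window and in 9 of the 30 members. The members were listed as genes of the response that this element is named for. Their high share is therefore no independent result. The sequences of the 6 members that rose are shown to let the shared element be seen, 5′ to 3′ on the strand of the gene, with the fixed letters of the element in capitals and 18 bases on each side.
Hspa5: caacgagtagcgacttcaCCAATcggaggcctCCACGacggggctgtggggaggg
Pdia6: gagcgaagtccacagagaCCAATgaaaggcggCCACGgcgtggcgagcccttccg
Canx: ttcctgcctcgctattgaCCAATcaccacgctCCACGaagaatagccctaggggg
Hsp90b1, farther element: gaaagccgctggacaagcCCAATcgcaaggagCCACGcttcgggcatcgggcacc
Hsp90b1, nearer element: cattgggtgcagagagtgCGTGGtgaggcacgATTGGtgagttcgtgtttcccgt
Calr: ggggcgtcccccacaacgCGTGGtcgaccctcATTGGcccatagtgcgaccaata
Creld2: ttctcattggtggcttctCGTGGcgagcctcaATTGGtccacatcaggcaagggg

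In Calr, Creld2 and the nearer element of Hsp90b1 the element lies on the opposite strand, so it reads CGTGG before ATTGG. The stretch of Hspa5 lies at chr2:34772007-34772061 (plus strand), that of Pdia6 at chr12:17266473-17266527 (plus strand) and that of Calr at chr8:84847057-84847111 (minus strand). The element begins 65 bases before the start site in Hspa5, 98 in Pdia6, 162 in Calr, 126 in Creld2 and 145 in Canx, and 212 and 107 bases before it in Hsp90b1. A shorter form, ERSE-II, searched on both strands as ATTGG, 1 base of any letter and CCACG, was in 12 windows (0.0365%). It was found in Dnajb11, 8 bases after the start, and in Herpud1. P4hb and Pdia3, which rose, held neither form in these windows. A match is a description of letters and not a measured site.

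The same element was also present in members that did not rise. The chaperone genes Dnajc3 and Ero1lb, with log2 fold changes of 0.15 and -0.69, and the degradation gene Syvn1, which fell, hold it as follows.
Dnajc3: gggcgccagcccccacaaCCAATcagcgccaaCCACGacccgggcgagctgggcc
Ero1lb: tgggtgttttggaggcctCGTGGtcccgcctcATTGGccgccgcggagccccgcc
Syvn1: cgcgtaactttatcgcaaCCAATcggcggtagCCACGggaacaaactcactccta
Of the 9 members with the element, 6 rose, 1 fell and 2 were not called. Among the 9043 tested genes with a window, 5 that are no members had it, of which 0 rose and 1 fell by the edgeR test. Of 6 such genes with ERSE-II, 2 rose and 0 fell. The search for UPRE, read as TGACGTGG, an element bound by XBP1, found 222 windows (0.676%) and 0 members. Of the 88 tested genes with it 19 rose and 6 fell. Over all genes tested 14.3% rose and 12.1% fell.

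**Figure D2:**
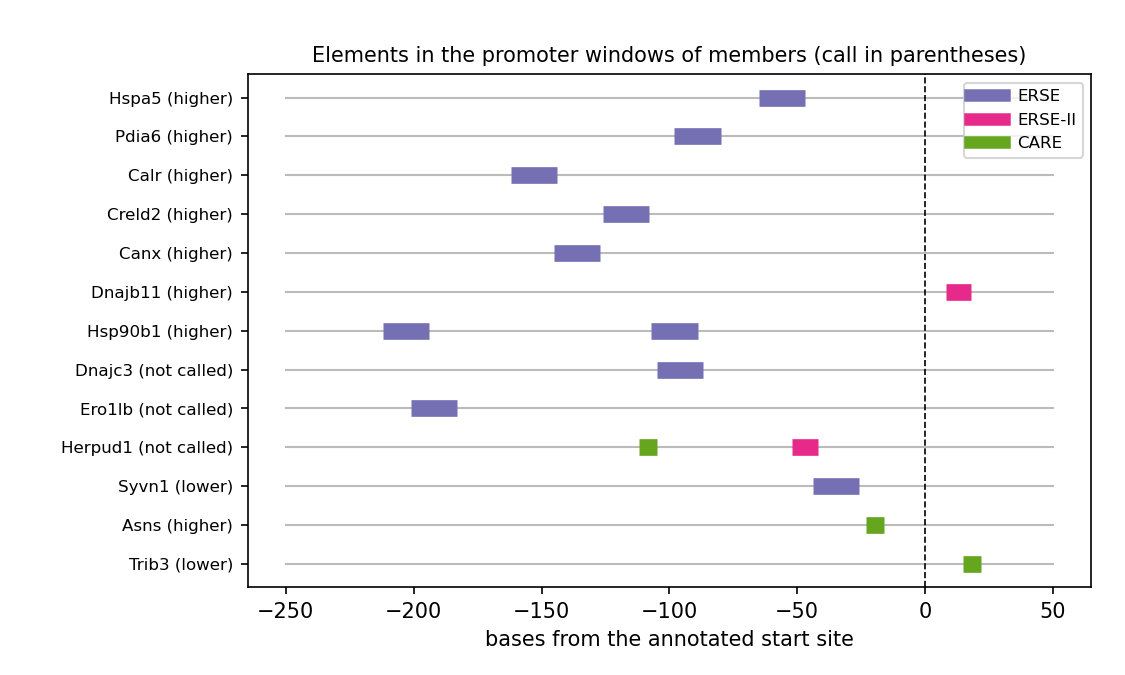
Position of each element, in bases from the annotated start site, in the 300-base promoter windows of members that hold 1, with the call of the gene in parentheses. ERSE (purple) stands between 212 and 26 bases before the start, in genes called higher, not called and lower.

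The 6 degradation genes, whose products send misfolded proteins to the proteasome, held no gene called higher. Over all genes tested 14.3% rose, so in so short a list this count is not unusual. Syvn1 encodes HRD1, the ubiquitin ligase at the centre of the degradation complex. It measured 103 and 61.1 CPM at rest and 51.8 and 22.0 CPM after stimulation, both lower, and fell by 1.15 ± 0.43 (SE) on the log2 scale. With an adjusted p of 0.0490 this call lay at the threshold, and it did not hold when resting library 4 was left out (-0.71, adjusted p = 0.273) or when tetramer library 5 was (-0.66, adjusted p = 0.457). It held in 5 of the 12 alternatives, and by DESeq2 the adjusted p was 0.0755. Sel1l, the partner that stabilises HRD1, stood at 225 and 209 CPM at rest and 144 and 192 CPM after stimulation (log2 fold change -0.37 ± 0.36 SE, adjusted p = 0.475). Herpud1, a scaffold of the complex and a strong target of the unfolded protein response in other cells, stood at 456 and 525 CPM at rest and 296 and 390 CPM after stimulation. Both genes were lower in both tetramer libraries, by less than the test could call (Herpud1 -0.52 ± 0.36 SE, adjusted p = 0.303).

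Herpud1 holds ERSE-II 52 bases before its start and, at 112 bases, a match to the ATF4 element described below. Its stretch is shown with the letters of ERSE-II in capitals, because it holds this form and was not called, while Dnajb11, which also holds it, rose.
Herpud1: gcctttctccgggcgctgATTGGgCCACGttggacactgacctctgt
Derl1 and Derl2 encode derlins, membrane proteins of the export channel. Derl1 was at 129 and 87.2 CPM at rest and 104 and 108 CPM after stimulation, with the tetramer pair inside the resting range. Derl2 went from 43.3 and 49.4 to 52.4 and 62.3 CPM (log2 fold change 0.31 ± 0.40 SE, adjusted p = 0.596). Edem1, a mannosidase-like protein that picks glycoproteins for degradation and a classical XBP1 target, measured 24.4 and 20.5 CPM at rest and 36.2 and 23.3 CPM after stimulation, with overlapping groups (adjusted p = 0.543).

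The contrast between chaperones and degradation genes was also read as ratios of counts within each library, which do not use the scaling between libraries. These ratios were chosen after the values were seen and carry no test. The summed counts of the 18 chaperone and folding genes over those of the 6 degradation genes were 1.55 and 1.47 in the resting libraries and 4.77 and 4.57 in the tetramer libraries. Without Hspa5 the ratio was 1.25 and 1.14 at rest and 3.26 and 2.94 after stimulation. The ratio of Hspa5 to Herpud1 was 0.641 and 0.601 at rest and 3.50 and 3.34 after stimulation. The libraries of a group lay close together in each of these ratios, compared with the gap between groups. As percentages of all counts, which amounts to scaling by library totals, chaperone and folding genes took 0.176% and 0.148% of all counts at rest and 0.290% and 0.334% after stimulation, while degradation genes took 0.114% and 0.101% and then 0.0608% and 0.0730%. Under that scaling the median of all genes was -0.35, so these percentages place the degradation genes lower, and the chaperones less high, than the TMM values do.

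**Figure D3:**
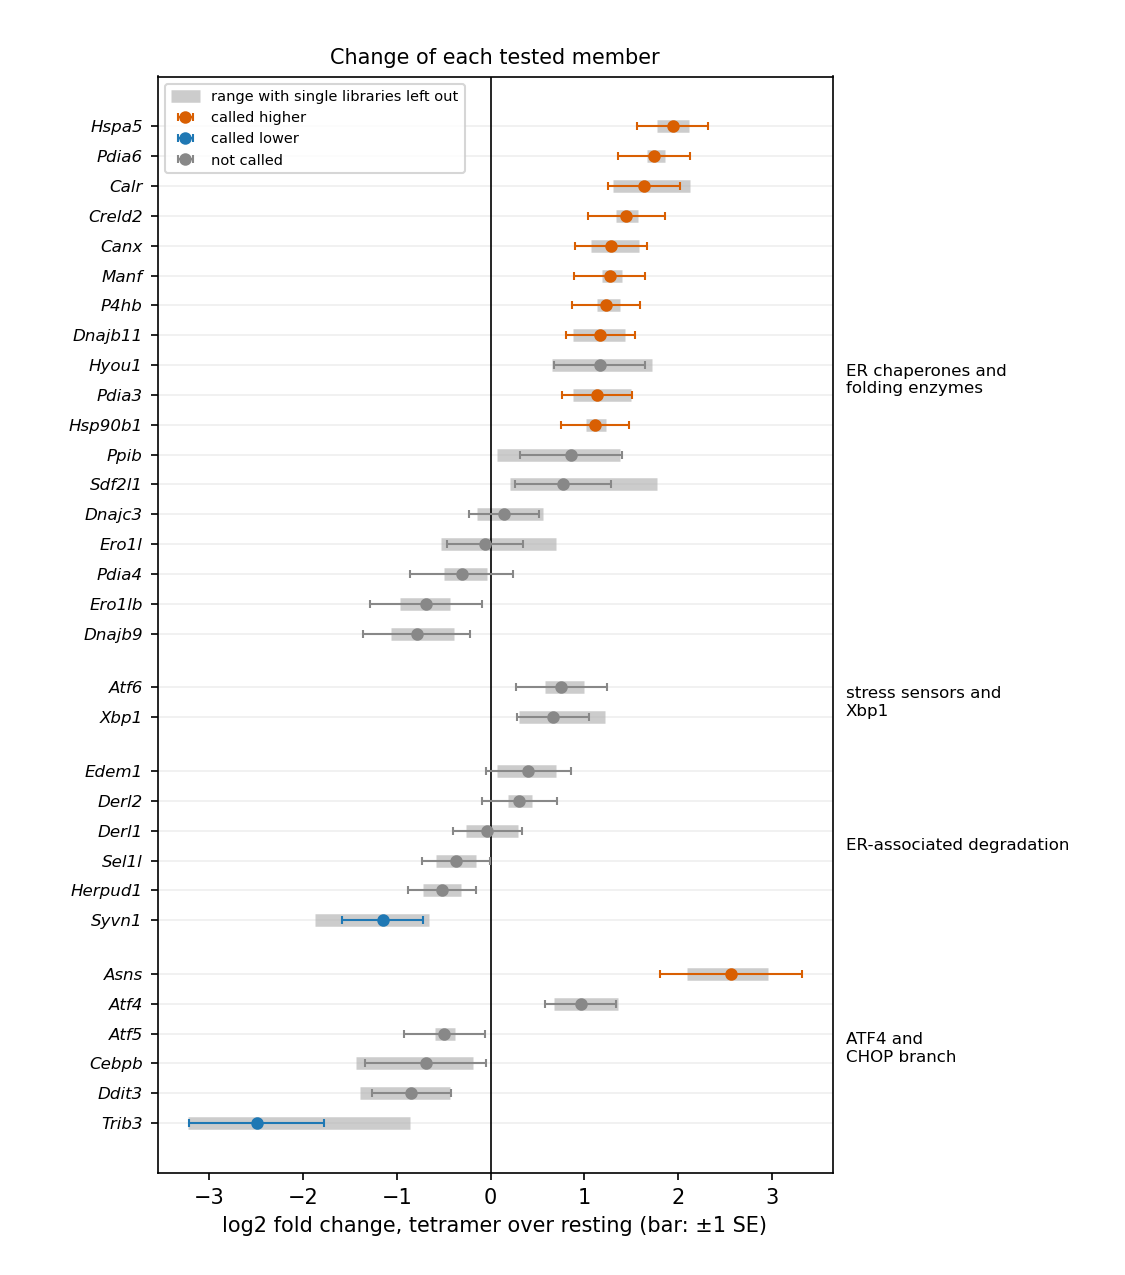
Log2 fold change (tetramer over resting) of the 32 tested members with ±1 SE (bars), coloured by call, and the range of the value when single libraries are left out (grey bands). The 10 called chaperones lie between 1.12 and 1.94, and the band of Trib3 runs from -3.23 to -0.86.

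The sensors were of low abundance or were not called. Xbp1, counted here without regard to splicing, stood at 53.5 and 100.2 CPM at rest and 133 and 112 CPM after stimulation. The tetramer libraries were above both resting libraries, and the log2 fold change of 0.67 ± 0.38 SE was not called (adjusted p = 0.199). Without resting library 5 it was called higher (1.22, adjusted p = 0.0495), and without resting library 4 the value was 0.30 (adjusted p = 0.669). Atf6 measured 16.4 and 12.2 CPM at rest and 22.9 and 25.3 CPM after stimulation (0.75 ± 0.49 SE, adjusted p = 0.255). Eif2ak3, which encodes PERK, had 13 and 5 counts in the resting and 7 and 2 in the tetramer libraries, and Ern1, which encodes IRE1, had 1 and 1 and then 6 and 10 counts. Neither passed the filter on low counts. For Ern1 the ratio of scaled counts was 7.74 (exact 95% interval 1.82 to 69.4, for counting error only), and 1 count is the lowest value in the table. Without the filter Ern1 was called higher (adjusted p = 0.0415) and Eif2ak3 was not (adjusted p = 0.398).

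In the ATF4 and CHOP branch 1 of 6 members rose and 1 fell, or 16.7% each, near the 14.3% and 12.1% of all genes tested. Atf4, the transcription factor whose translation PERK and related kinases favour, stood at 269 and 428 CPM at rest and 615 and 742 CPM after stimulation. Both tetramer libraries were above both resting libraries, and the log2 fold change was 0.96 ± 0.38 SE with an adjusted p of 0.0581. It was called higher by DESeq2 (adjusted p = 0.0440), by limma-voom (adjusted p = 0.0461) and without resting library 5 (adjusted p = 0.0325). Ddit3, which encodes the death-promoting factor CHOP, stood at 55.1 and 67.3 CPM at rest and 23.1 and 44.9 CPM after stimulation. Both tetramer libraries were lower, with a log2 fold change of -0.85 ± 0.42 SE that was not called (adjusted p = 0.138), although it was with library totals (-1.13, adjusted p = 0.0446). Within libraries the ratio of Atf4 to Ddit3 counts was 4.88 and 6.36 at rest and 26.6 and 16.5 after stimulation.

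Trib3 encodes a pseudokinase induced by ATF4 and CHOP that restrains Akt. Its counts were 20 in resting library 4, 100 in resting library 5, and 10 and 12 in the tetramer libraries, or 4.14 and 21.4 CPM and then 2.05 and 2.43 CPM. Resting library 5 stood far above the other libraries. The gene fell by 2.50 ± 0.72 (SE) on the log2 scale (adjusted p = 0.0121), but without resting library 5 the value was -0.86 (adjusted p = 0.388). Leaving out tetramer library 4 or tetramer library 5 also ended the call, with adjusted p of 0.119 and 0.0555, as did limma-voom (0.0530). Asns, the asparagine synthetase that ATF4 induces, had 5 and 3 counts at rest and 32 and 18 counts after stimulation. It was low in all 4 libraries, at 1.04 and 0.641 CPM and then 6.55 and 3.64 CPM, and rose 5.91-fold (log2 fold change 2.56 ± 0.76 SE, adjusted p = 0.0136). Without tetramer library 4 or tetramer library 5 it was not called (adjusted p = 0.321 and 0.0624).

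Atf5, a relative of ATF4, measured 37.1 and 34.0 CPM at rest and 27.2 and 23.3 CPM after stimulation (log2 fold change -0.49 ± 0.43 SE, adjusted p = 0.422). Cebpb, a partner of CHOP, measured 6.63 and 7.91 CPM at rest and 6.34 and 2.63 CPM after stimulation (adjusted p = 0.447). Both were lower in both tetramer libraries without a call. The composite element through which ATF4 and C/EBP partners act (CARE) was searched on both strands as TGATGNAA. It occurred in 1304 windows, or 3.97%, and in 3 of the 30 members, Asns, Trib3 and Herpud1, none overlapping an ERSE form. Of 256 tested genes outside the members with it, 34 rose and 37 fell, near the shares of 14.3% and 12.1% over all genes tested. The stretches of Asns, which rose, and of Trib3, which fell, are shown beside that of Herpud1 because all of them hold the element with different outcomes. In Trib3 and Herpud1 it lies on the opposite strand, and in Trib3 it begins 15 bases after the start.
Asns: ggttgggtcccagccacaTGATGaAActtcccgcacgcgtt
Trib3: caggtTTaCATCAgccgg
Herpud1, ATF4 element: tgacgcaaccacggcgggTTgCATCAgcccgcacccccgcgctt

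Other genes of these pathways were read from lists that hold no member. Of 34 tested ER folding genes outside the members, 3 rose and 0 fell, or 8.82% higher against 14.3% of all genes tested. With library totals 2 rose and 2 fell, and without resting library 5 the list counted 3 rises and 2 falls. Those with the largest rises were Mogs, the glucosidase that makes the first cut on new N-glycans, from 170 ± 19.3 to 568 ± 51.2 CPM (SD, n = 2 each, adjusted p = 0.00115), and Prkcsh, a subunit of the next glucosidase, from 104 ± 16.4 to 291 ± 11.7 CPM (adjusted p = 0.00398). Of 33 tested genes for entry into the ER, signal peptide removal and glycan transfer, 9 rose and 0 fell, or 27.3% higher, with a median log2 fold change of 0.68. Rpn1, a subunit of the oligosaccharyltransferase, rose from 54.8 ± 4.01 to 225 ± 29.7 CPM (adjusted p = 0.000262), and Sec61g, a subunit of the translocation channel, from 128 ± 28.1 to 427 ± 38.1 CPM (adjusted p = 0.00124). Without tetramer library 4 the genes of this entry list that rose numbered 3, without tetramer library 5 they numbered 6, and with library totals 5.

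Of 29 other degradation genes 2 rose and 3 fell, or 6.9% higher and 10.3% lower, against 14.3% and 12.1% of all genes tested. The median of -0.04 was near that of all genes tested. Faf2, which recruits the p97 ATPase to the ER membrane, rose from 12.2 ± 0.0302 to 40.9 ± 1.39 CPM, and Nploc4, a cofactor of p97, from 28.1 ± 0.169 to 71.0 ± 15.7 CPM. Without tetramer library 4 neither was called (adjusted p of 0.0594 and 0.243), and Faf2 was not without tetramer library 5 (0.0530). Rnf103, an ER ubiquitin ligase, fell by 2.29 ± 0.55 (SE) and Edem3, a relative of Edem1, by 1.98 ± 0.59 (SE) on the log2 scale, both with resting library 4 above resting library 5. Without resting library 4 these falls were no longer called (-1.49 with adjusted p = 0.0542, and -1.08 with adjusted p = 0.206), nor was that of Edem3 without tetramer library 4 or 5 (adjusted p of 0.183 and 0.0609). The list counted 0 rises without tetramer library 4 and 1 without tetramer library 5, and 0 falls without resting library 4 and 1 without either tetramer library. With library totals it counted 1 rise and 6 falls.

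Of 21 other sensors and regulators 5 rose and 1 fell, or 23.8% higher and 4.76% lower. The shares of all genes tested were 14.3% and 12.1%. Eif2s1, the translation factor subunit that PERK phosphorylates, rose by 1.77 ± 0.48 (SE) and Traf2, an adaptor bound by active IRE1, by 1.51 ± 0.52 (SE) on the log2 scale. Mbtps2, a protease that cuts ATF6, fell by 1.43 ± 0.46 (SE), a fall not called when resting library 5 was left out (-0.60, adjusted p = 0.415), nor without tetramer library 4 or 5 (0.224 and 0.0517). Eif2s1 was not called without tetramer library 4 (adjusted p = 0.263), and Traf2 was not without that library, tetramer library 5 or resting library 4 (0.262, 0.120 and 0.0568). Without tetramer library 4 or tetramer library 5 this list counted 1 rise and 0 falls each, without resting library 4 it counted 3 and 2, without resting library 5 it counted 4 and 0, and with library totals 3 and 5.

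Of 35 other ATF4 targets listed, 30 were in the count table and tested. Chac1, Vldlr, Stc2, Gdf15 and Cth were not in it, so the shares leave these genes out. Of the 30 tested, 14 rose, 0 fell and 16 were not called, or 46.7% higher against 14.3% of all genes tested. The median log2 fold change was 1.21, with values from -1.15 to 4.22, 24 of them positive and 6 negative. Psat1, an enzyme of serine synthesis, went from 8.79 ± 4.57 to 164 ± 44.9 CPM (log2 fold change 4.22 ± 0.46 SE, adjusted p = 3.44e-07). Gpt2, an alanine aminotransferase, had 2 and 3 counts at rest and went from 0.528 ± 0.160 to 4.88 ± 0.0397 CPM (adjusted p = 0.00464), a rise not called without tetramer library 4 or 5 (0.0995 and 0.0684). Without tetramer library 4 or tetramer library 5, 11 and 10 genes of the ATF4 list rose.

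**Figure D4:**
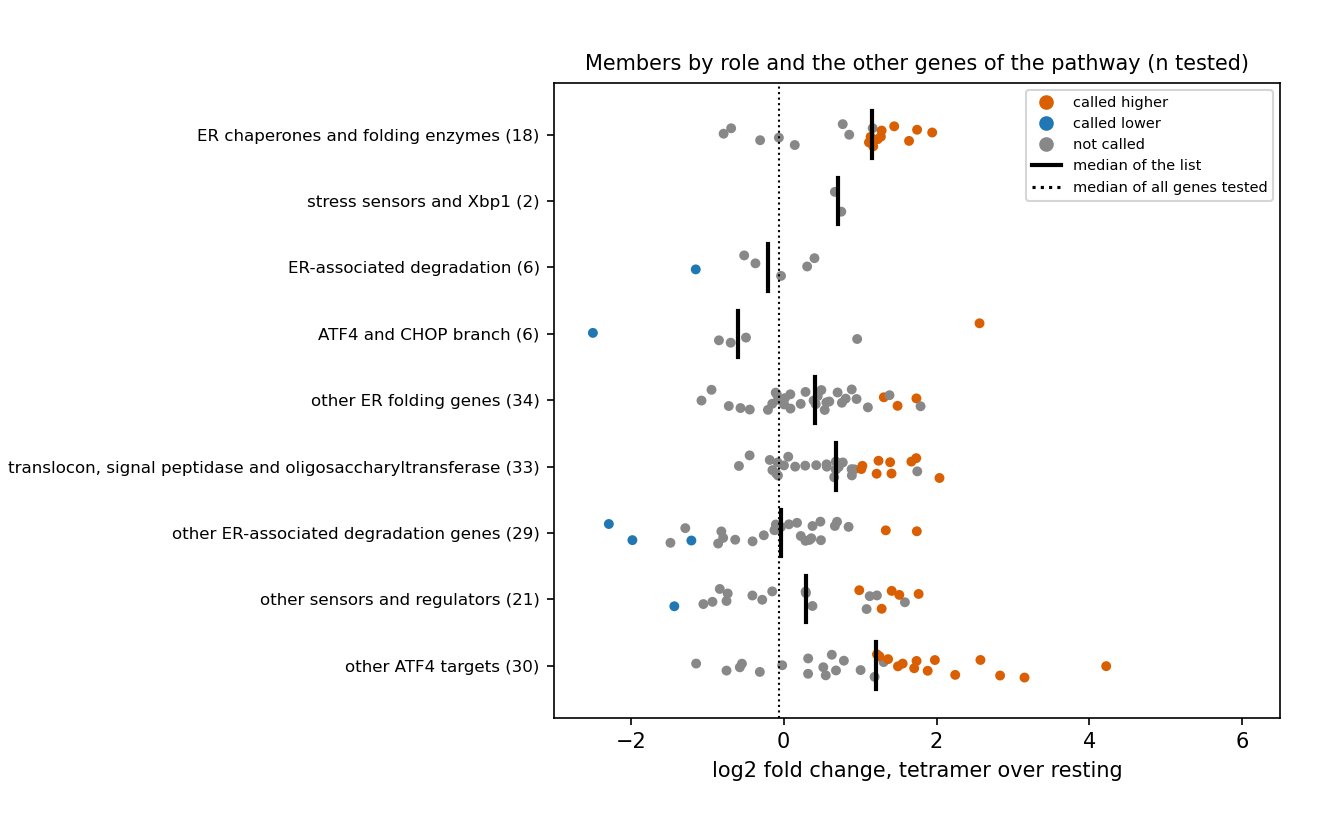
Log2 fold change (tetramer over resting) of the tested genes of each role and of the other pathway lists (number tested in parentheses), coloured by call, with a black bar at each median and a dotted line at the median of all genes tested. The median is 1.15 for chaperones and folding enzymes and 1.21 for other ATF4 targets, against -0.20 and -0.04 for the degradation lists.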

How the data were processed

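RNA-seq read counts were analysed for 2 resting and 2 tetramer libraries. The authors deposited whole-number counts per gene symbol, and per the submitters' processing notes Bowtie2, DESeq2 and build mm9 were used, with no versions; the counting tool, any use of strand and the handling of multi-mapped reads were not given in the sources used here. Per the labels' protocols, cDNA made from poly(A) RNA went through 23 PCR cycles, at lengths between 200 and 400 nt. Columns carry the numbers 4 and 5, which are not the replicate numbers of the titles, so they were matched to groups only, and libraries are called by these numbers. The table lists 12021 genes and no count below 1. A row with a cell that is not a number (Tmem138) was left out, and 18 symbols turned into dates were tested but not named.

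Counts were tested with edgeR 4.0.16 (R 4.3.3), by its quasi-likelihood F test with the default filter (11312 genes kept), TMM scaling (factors 1.16, 1.06, 0.890 and 0.917 for resting libraries 4 and 5 and tetramer libraries 4 and 5) and Benjamini-Hochberg adjustment over all genes tested, at 0.05. CPM are counts scaled to a library size of 1000000. The SE of a log2 fold change was taken from the F statistic. Alternatives used DESeq2 1.42.0, limma 3.58.1 (voom) and other settings given in the closing section; where 1 library of a group was left out, the lone library was assumed to vary like the other group. The exact (Clopper-Pearson) interval of the ratio for Ern1 covers counting error only, as reads amplified by PCR with no molecular identifier may copy the same molecule. The labels do not tie the libraries to separate mice. The p-values therefore reflect only how far these libraries differ, which may be technical. Counts within each group differed by more than sampling noise (chi-square per degree of freedom 30.9 at rest and 28.0 after stimulation). Promoter letters were read from RefSeq windows. The letters of the elements searched for came from general knowledge of these elements, not from the deposited files or the reference tables.

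The members, gene lists and roles were chosen with earlier results of these data known, and the promoter elements after the values were seen. Named genes are all members and, from each other pathway list, the up to 2 called genes with the largest change in each direction, or, in a list with no call, the gene of smallest p, except where the text says otherwise. No gene set test was made.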

Additional observations from a re-analysis of the deposited data

How the results depend on the processing

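Over the 32 tested members and the named genes of the other pathway lists, no value reversed its direction under an alternative in which it was called, and the uncalled values of Dnajc3, Ero1l and Derl1 changed sign in some. The median of the other degradation genes turned to 0.06 under the stricter filter named below and to 0.20 without resting library 4, where that of all genes turned to 0.01. With library totals, 5 members rose and 3 fell (4 chaperones rose, and 2 genes of the ATF4 and CHOP branch fell), and 2250 of all genes fell. Against a fold of 1.5, 5 members rose and 1 fell (4 chaperones rose, 0 degradation genes fell), and 785 of all genes fell. With DESeq2 size factors in edgeR, or by DESeq2, 1 member fell and 0 degradation genes fell, and by DESeq2 2 genes of the ATF4 and CHOP branch rose. By limma-voom 1 member fell, and 2 genes of that branch rose and 0 fell. Without a filter 1 member fell, 0 degradation genes fell and 1 sensor gene rose. With a mean of at least 10 CPM, 0 members fell, 0 degradation genes fell and 0 genes of the ATF4 and CHOP branch rose or fell, since Trib3 and Asns were not tested there. With single libraries left out, the members that rose ranged from 4 to 12 and those that fell from 0 to 1, chaperones that rose from 4 to 9, sensor genes that rose from 0 to 1 and degradation genes that fell from 0 to 1. In the ATF4 and CHOP branch 0 to 2 rose and 0 to 1 fell. Over all genes, 622 to 1629 rose and 313 to 1488 fell.

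With a replicate block on the shared column number, 11 members rose and 2 fell, with 1693 genes higher and 1468 lower in all. No count over members changed. The deviations of libraries with the same number correlated at 0.0486 across genes. This value shows no sign of pairing but cannot exclude it, since each group holds only 2 libraries and the labels do not say. In this design of 2 against 2 libraries, a p that misses the threshold does not show that a gene did not change, and genes with few counts, such as Ern1, Eif2ak3 and Asns, are limited by depth.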
